A study of Homo sapiens with 6 samples.

Results

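The ZNF zinc finger genes of chromosome 19 are the 249 protein-coding genes of that chromosome whose GENCODE symbol begins with ZNF and a number. They were taken from 20033 protein-coding genes, of which 1476 lie on chromosome 19, and no measured value entered the choice. H3K27ac, the acetylation of lysine 27 on histone H3, was read around each gene's start by CUT&Tag, in which an antibody guides the transposase Tn5 to cut and tag the DNA next to the modified histone. The cells were the human acute myeloid leukemia lines Kasumi-1, which carries a RUNX1::RUNX1T1 fusion, and MV4-11, which carries a KMT2A fusion. Each line was a stable lentiviral culture selected with puromycin, expressing either a non-targeting hairpin (NC, which the sample labels list as untreated) or a short hairpin RNA against ANP32B, a histone chaperone (sh-ANP32B). The sources used here do not say which hairpin sequence the sh-ANP32B libraries carried. Each of the 4 groups was 1 peak list made from merged replicates, so every difference compares 2 libraries, has no replicate check and carries no p-value.

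Most genes of this family encode proteins with a row of C2H2 zinc fingers, short folds that hold a zinc ion and read DNA sequence. Many carry a KRAB domain before the fingers, which recruits the corepressor TRIM28 and, through it, the histone methyltransferase SETDB1 and HP1 proteins. These proteins are known chiefly for silencing retrotransposons. The genes arose by repeated tandem duplication, and on chromosome 19 they stand in dense groups whose bodies often carry the repressive mark H3K9me3. H3K27ac marks active promoters and enhancers, so a peak at a start describes the promoter and not the protein's targets.

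For each gene, a window was laid from 2500 bases before to 2500 bases after the canonical start of transcription, and both the presence of a peak and the bases of the window under peaks were recorded. Positions are on hg38. In the sequences shown here, each from 150 bases before to 30 bases from the start, capitals mark motifs found on either strand. The motifs searched were the GC box GGGCGG, the box of the factor NF-Y with the letters CCAAT, the core of ETS-type sites with the letters GGAAGT, part of the NRF1 site with the letters GCGCATGC, the YY1 motif with the letters AAGATGGC, and the promoter element with the letters TCTCGCGA. No motif of the list contains another, but neighbouring matches can run together or overlap, as in TCTCGCGAGA. The sequences are from RefSeq on GRCh38.p14, are written 5′ to 3′ on the strand of the gene, and were identical to hg38 at the same positions. They were chosen because they stand for the extremes of the family: the start with the most bases under peaks (ZNF414, chr19:8514138-8514317, minus strand), a start with a broad peak in Kasumi-1 alone (ZNF865, chr19:55605497-55605676, plus strand), a start whose peak in MV4-11 was in NC only (ZNF274, chr19:58182911-58183090, plus strand), a shared start that had a peak in a single library (ZNF791, chr19:12610770-12610949, plus strand), and 2 pairs of related starts that differed in their peaks. The first pair is ZNF93 (chr19:19900796-19900975, plus strand) and ZNF91 (chr19:23395442-23395621, minus strand). The second pair is ZNF561 (chr19:9621203-9621382, minus strand) and ZNF562 (chr19:9675071-9675250, minus strand).
ZNF414: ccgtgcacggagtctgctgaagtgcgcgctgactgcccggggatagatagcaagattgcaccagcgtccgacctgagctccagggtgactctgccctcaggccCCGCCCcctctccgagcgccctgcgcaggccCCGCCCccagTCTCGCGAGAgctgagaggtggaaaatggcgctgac
ZNF865: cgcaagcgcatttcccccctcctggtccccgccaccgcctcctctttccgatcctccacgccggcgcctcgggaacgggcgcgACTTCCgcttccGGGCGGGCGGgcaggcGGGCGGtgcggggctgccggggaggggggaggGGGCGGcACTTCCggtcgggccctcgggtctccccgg
ZNF274: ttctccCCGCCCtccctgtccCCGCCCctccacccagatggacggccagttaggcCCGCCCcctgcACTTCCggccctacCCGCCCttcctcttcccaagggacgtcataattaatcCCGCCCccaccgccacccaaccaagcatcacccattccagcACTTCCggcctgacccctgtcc
ZNF791: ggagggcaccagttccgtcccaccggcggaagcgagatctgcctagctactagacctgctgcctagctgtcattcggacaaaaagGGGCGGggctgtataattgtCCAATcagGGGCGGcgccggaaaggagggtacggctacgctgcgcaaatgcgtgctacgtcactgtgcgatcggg
ZNF93: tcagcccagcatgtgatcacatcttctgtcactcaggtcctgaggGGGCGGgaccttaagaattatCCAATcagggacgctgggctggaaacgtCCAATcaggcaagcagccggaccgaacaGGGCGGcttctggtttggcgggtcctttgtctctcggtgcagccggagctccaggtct
ZNF91: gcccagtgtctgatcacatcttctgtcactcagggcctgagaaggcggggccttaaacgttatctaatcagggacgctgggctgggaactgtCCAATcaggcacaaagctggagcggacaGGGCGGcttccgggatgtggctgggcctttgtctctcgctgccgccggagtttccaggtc
ZNF561: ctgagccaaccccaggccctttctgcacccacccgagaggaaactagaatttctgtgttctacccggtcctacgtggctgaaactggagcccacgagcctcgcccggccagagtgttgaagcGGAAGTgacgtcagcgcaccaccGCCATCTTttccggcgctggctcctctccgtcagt
ZNF562: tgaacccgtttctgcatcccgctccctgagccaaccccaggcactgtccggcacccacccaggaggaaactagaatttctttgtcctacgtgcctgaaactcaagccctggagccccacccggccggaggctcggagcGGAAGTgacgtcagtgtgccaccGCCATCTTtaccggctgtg

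The 4 libraries held between 22136 and 24523 peaks on the main chromosomes, covering 23 to 33.7 Mb, and the MV4-11 sh-ANP32B library had the least on both counts. The smallest peak width was 357 and 354 bases in the Kasumi-1 NC and sh-ANP32B lists and 289 and 275 bases in those of MV4-11, so each list had its own floor for a peak. Read totals were not in the lists, and depth is unknown. The window of ANP32B, the gene the hairpin targets, had 3447 (NC) and 3432 (sh-ANP32B) covered bases in Kasumi-1, and 3433 (NC) and 2631 (sh-ANP32B) in MV4-11, which describes its promoter and does not check the knockdown of its RNA. Of 8 blood and myeloid marker genes, 6, 6, 6 and 5 had a peak in Kasumi-1 NC, Kasumi-1 sh-ANP32B, MV4-11 NC and MV4-11 sh-ANP32B, with SPI1, RUNX1, LMO2 and CEBPB marked in all 4 and MPO in none. The 3 T cell and 2 liver markers had no peak in any library.

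Fewer of the ZNF genes of chromosome 19 had a promoter peak than genes in general, in every library. In Kasumi-1 NC 76 of the 249 had a peak, or 30.5% (95% Wilson interval 25.1 to 36.5), and in Kasumi-1 sh-ANP32B 79, or 31.7% (26.3 to 37.7). In MV4-11 NC 45 had a peak, or 18.1% (13.8 to 23.3), and in MV4-11 sh-ANP32B 32, or 12.9% (9.25 to 17.6). The same shares over all protein-coding genes were 47.7%, 45.3%, 35.8% and 28.6%. Among the 1227 other genes of chromosome 19 they were 52.3%, 50.4%, 38.8% and 31.5%, and among the 266 ZNF genes of other chromosomes 60.5%, 57.9%, 45.1% and 31.6%. In each library the interval of the chromosome 19 ZNF genes lay below those of both comparison sets. These intervals cover counting error only, and neighbouring genes are not independent of each other.

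Where a peak was present, it tended to be shorter than at other genes. Among the genes with a peak, the median coverage of the window in Kasumi-1 was 1100 bases with the NC hairpin and 1186 with sh-ANP32B. The medians in MV4-11 were 689 bases (NC) and 724.5 bases (sh-ANP32B). The other chromosome 19 genes had medians of 1934, 2028, 1076 and 880 in the same order, and the ZNF genes of other chromosomes 1413, 1432, 965 and 764.5, the last close to that of the chromosome 19 genes. At least 2000 bases were covered at 15, 16, 3 and 2 of the ZNF genes, or 19.7%, 20.3%, 6.67% and 6.25% of those with a peak, beside 31.2%, 32.7%, 17.4% and 13.8% over all genes. The windows held 78, 81, 44 and 35 distinct peaks, as some genes share a peak and 4, 6, 1 and 4 windows held more than 1.

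The peaks were centred just downstream of the start. Coverage over the genes with a peak was highest at 100 bases past the start in Kasumi-1 NC (92.1% of genes) and MV4-11 sh-ANP32B (81.2%), and at 200 bases in Kasumi-1 sh-ANP32B (89.9%) and MV4-11 NC (82.2%). At 1000 bases to either side, 17.1% of the ZNF genes with a peak were still covered in Kasumi-1 NC, beside 27.4% upstream and 35.6% downstream in other genes. A peak lay over the start base itself in 86.8% (NC) and 81.0% (sh-ANP32B) of the ZNF genes with a peak in Kasumi-1, and in 55.6% (NC) and 56.2% (sh-ANP32B) of those in MV4-11. In other genes these shares were 86.7%, 77.7%, 66.5% and 57.6%, so the ZNF starts of MV4-11 NC were the least like other genes in this respect.

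**Figure D1:**
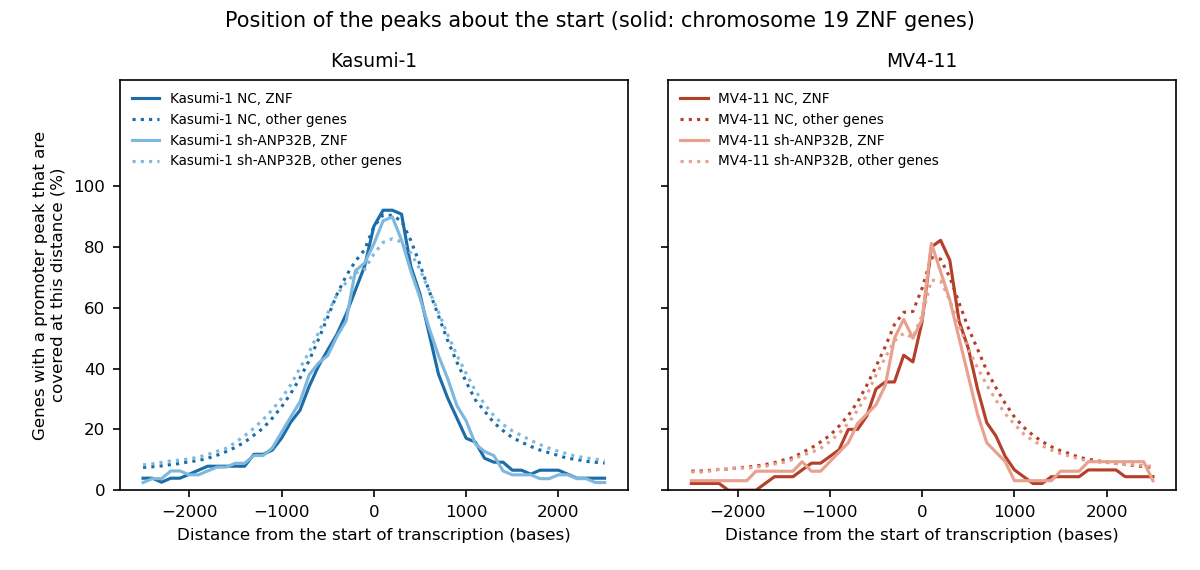
Percent of the genes with a promoter peak whose window is covered by a peak at each distance in bases from the start, with solid lines for the chromosome 19 ZNF genes and dotted lines for all other protein-coding genes, by library. The highest points of the solid lines are 92.1% and 89.9% for Kasumi-1, against 82.2% and 81.2% for MV4-11, and these lines lie under the dotted lines at 1000 bases to either side.

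Over the 4 libraries together, 164 of the 249 genes (65.9%) had no promoter peak at all, beside 50.1% of all genes and 45.7% of the other chromosome 19 genes. A peak in all 4 libraries was found at 26 genes (10.4%), beside 25.9% of all genes. A peak in both Kasumi-1 libraries and neither MV4-11 library was found at 28 genes (11.2%), beside 9.72% of all genes. A further 16 (6.43%, beside 7.66% of all genes) had a peak in all but the MV4-11 sh-ANP32B library. The remaining 15 genes fell into patterns of 6 genes or fewer.

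The genes without a peak differed in their encoded protein from those with one, and most from those marked in all 4 libraries. A KRAB core, found here as a sequence pattern in the translated canonical transcript, was present in 205 of the 249 genes (82.3%). It was present in 151 of the 164 genes without a peak (92.1%) and in 54 of the 85 with a peak in any library (63.5%). Among the latter it was in 13 of the 26 with a peak in all 4 libraries (50%), 16 of the 28 with a peak in Kasumi-1 alone (57.1%) and 25 of the 31 of other patterns (80.6%). The pattern is approximate, and a gene whose KRAB exon lies outside the canonical transcript counts as having none. The median number of C2H2 fingers was 13 in the genes without a peak and 11 in those with any, and the genes marked in all 4 had 8.5, those of both Kasumi-1 libraries alone 12.5 and those of other patterns 12.

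Among the 205 genes with the KRAB pattern, 22.9% (17.7 to 29.1) were marked in Kasumi-1 with NC and 23.9% with sh-ANP32B, while 14.1% (10 to 19.6) were marked in MV4-11 with NC and 8.29% with sh-ANP32B. Among the 44 without it, the shares were 65.9% (51.1 to 78.1), 68.2%, 36.4% (23.8 to 51.1) and 34.1%. The KRAB genes with a peak also had less of it, with a median over the NC libraries of 916 bases for Kasumi-1 and 484 for MV4-11, beside 1678 and 1024 bases in the genes without the pattern. Place on the genome went with a further difference. The 90 ZNF genes of other chromosomes with the KRAB pattern had a peak in 52.2% (42 to 62.2), 51.1%, 37.8% (28.5 to 48.1) and 22.2% of cases, all above the KRAB genes of chromosome 19. For the 176 ZNF genes of other chromosomes without the pattern, the shares were 64.8%, 61.4%, 48.9% and 36.4%, close to those of the 44 genes of chromosome 19 in Kasumi-1 and above them in MV4-11 NC, with intervals that overlapped.

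**Figure D2:**
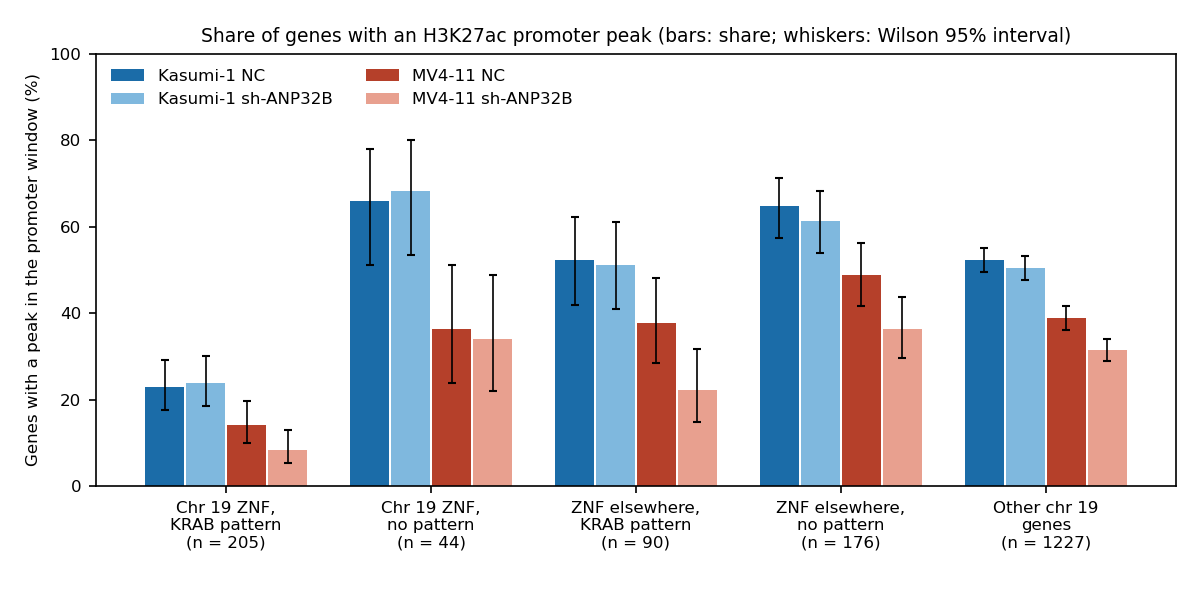
Percent of genes with an H3K27ac peak in the promoter window by library (bars, with Wilson 95% intervals as whiskers that cover counting error only), for ZNF genes with and without the KRAB core pattern on chromosome 19 and elsewhere, and for the other chromosome 19 genes. The 205 KRAB genes of chromosome 19 have the lowest bar in every library, from 8.29% to 23.9%.

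Base composition moved with presence as well. The GC content of all promoter windows was cut into quintiles over all protein-coding genes. In the lowest, from 29.2% to 44% GC, the ZNF genes of chromosome 19 did not stand below other genes in Kasumi-1 NC, with a peak at 11 of 44 (25%) beside 22.9% of other genes. In the quintiles next to it, which held 89 and 68 of the ZNF genes, 22.5% and 22.1% had a peak, beside 54.1% and 57.3% of other genes. In quintile 4 the shares were 52.8% of 36 ZNF genes and 54.1% of other genes, and in the highest 91.7% of 12 and 51.2%. MV4-11 NC had a like course, with 18.2%, 6.74%, 16.2%, 36.1% and 58.3% of the ZNF genes from the lowest quintile to the highest, beside 19.3%, 40.0%, 41.9%, 39.9% and 39.0% of other genes.

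The KRAB pattern and GC content overlapped only in part. In the 3 lower quintiles a peak was present in Kasumi-1 NC at 38 of 181 KRAB genes of chromosome 19 (21.0%) and at 8 of 20 without the pattern (40.0%). In the 2 upper quintiles the counts were 9 of 24 (37.5%) and 21 of 24 (87.5%). In MV4-11 NC the lower quintiles gave 22 of 181 (12.2%, 8.17 to 17.7) and 3 of 20 (15%, 5.24 to 36), which are not apart, and the upper ones 7 of 24 (29.2%) and 13 of 24 (54.2%). At KRAB genes of other chromosomes a peak was present in Kasumi-1 NC at 31 of 70 (44.3%) in the lower quintiles and 16 of 20 (80.0%) in the upper ones. In MV4-11 NC these counts were 24 of 70 (34.3%) and 10 of 20 (50%). CpG sites within 500 bases of the start had a median of 57 in the genes without a peak and 63 in those with a peak in any library. The median GC content of the window was 47% and 48.8% in the same order.

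**Figure D3:**
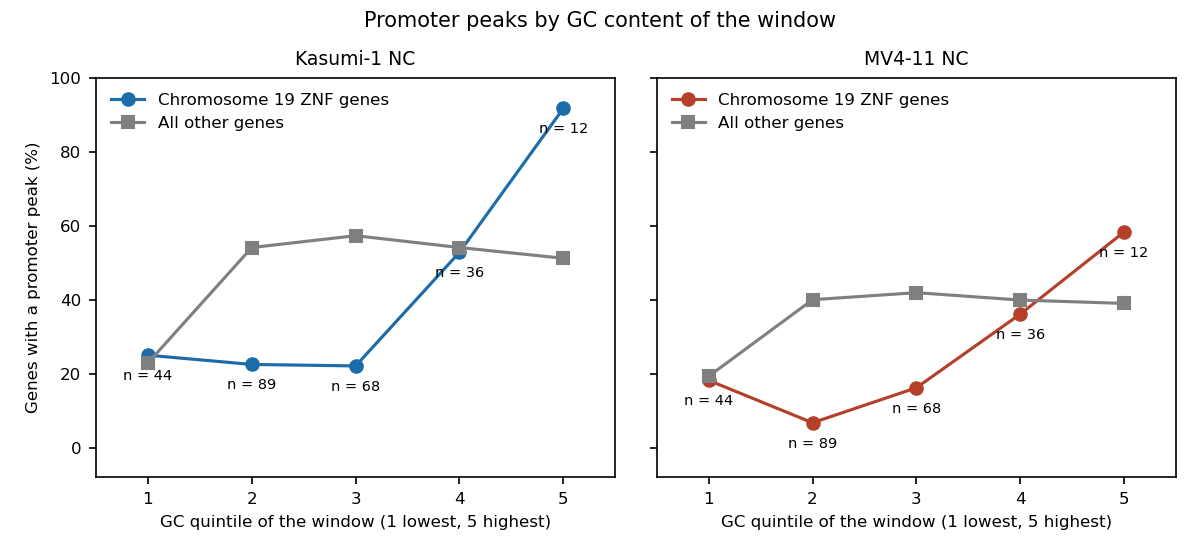
Percent of genes with a promoter peak, for each NC library, by quintile of the GC content of the window, for the chromosome 19 ZNF genes (coloured, with the number of genes) and all other protein-coding genes (grey). In Kasumi-1 NC the 2 sets meet in quintiles 1 and 4 and differ between them (22.5% and 54.1%, then 22.1% and 57.3%).

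Since the family is rich in near-copies, reads can fail to map to a single place. The share of 31-base words in the window that occur elsewhere in the genome had a median of 17.4% over the ZNF genes, 18.1% in those without a peak, 16.5% in those with one and 15.4% at the other chromosome 19 genes. In Kasumi-1 NC a peak was present at 28 of 97 ZNF genes with at least 20% of such words (28.9%) and at 48 of 152 with fewer (31.6%). The same comparison in MV4-11 NC gave 15.5% and 19.7%. Low presence was thus found in windows of both kinds, and the part of GC content or of repeated words in it was not tested.

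The motifs of the shown sequences were counted in RefSeq promoters from 250 bases before to 50 bases after the start, which were at hand for 218 of the 249 genes. CCAAT was found in 54.1% of these and in 36.6% of all 15345 promoters, and GGAAGT in 40.8% and 25%. Within the family CCAAT was more frequent in the 141 promoters of genes without a peak (60.3%) than in the 77 of genes with one (42.9%). GGGCGG was found in 67.9% and 59.2%, AAGATGGC in 6.42% and 3.97%, GCGCATGC in 4.13% and 4.25%, and TCTCGCGA in 1.38% and 1.80%, family first. A match gives letters in the window and not a bound factor.

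The pairs of related sequences show how far starts that look alike could differ. ZNF91 and ZNF93 encode KRAB proteins known to bind SVA and L1 retrotransposons respectively. Their shown stretches of 180 bases were identical at 151 aligned positions, with 8 gap positions, and both hold CCAAT and GGGCGG. For comparison, the stretches of ZNF91 and ZNF414 were identical at 89 positions, with 26 gap positions. The window of ZNF93 had 1122 (NC) and 1298 (sh-ANP32B) bases under peaks in Kasumi-1, and 408 in either MV4-11 library. ZNF91 had no peak in any library. ZNF561 and ZNF562 had 131 identical aligned positions, with 52 gap positions. Both hold the letters GGAAGT and GCCATCTT (the latter is AAGATGGC on the other strand). Their peaks differed likewise: ZNF561 had 1083, 1212, 0 and 635 bases in the 4 libraries. ZNF562 had 0, 0, 0 and 517, and its peak at chr19:9672629-9673145 lay 1955 to 2471 bases downstream of the start, away from the letters shown.

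Other members with a known role stood on both sides. ZNF649 had no peak in any library, and neither had ZNF331, an imprinted gene, at its canonical start (chr19:53538145). The RefSeq start of ZNF331 lies 17131 bases upstream of that position, so its other promoters were not measured in this window. ZNF611, a KRAB gene, had 422 (NC) and 373 (sh-ANP32B) bases in Kasumi-1 and none in MV4-11.

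Along the chromosome the genes formed 9 groups of at least 5, where a gap of over 1 Mb between starts ended a group. The highest share with a peak in Kasumi-1 NC was in the group at 7.1 to 9.8 Mb, with 7 of 16 genes (43.8%), followed by 9 of 24 (37.5%) at 43.5 to 45.1 Mb. The groups at 11.5 to 12.6 Mb and 36.2 to 37.8 Mb had 8 of 26 each (30.8%), and the largest, at 55.5 to 58.5 Mb, had 18 of 59 (30.5%). The groups at 51.6 to 53.5 Mb (9 of 40, 22.5%) and 19.7 to 24.1 Mb (8 of 37, 21.6%) stood lower. The 5 genes at 34.7 to 35.0 Mb had no peak in any library, and 1 of 5 at 2.8 to 2.9 Mb had a peak.

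In MV4-11 NC the shares of the groups lay closer together. The largest shares were 5 of 24 (20.8%) at 43.5 to 45.1 Mb and 12 of 59 (20.3%) at 55.5 to 58.5 Mb, and the group that led in Kasumi-1 NC had 2 of 16 (12.5%). This depends on how groups are cut: with groups ended by 500 kb the highest share was 50% in MV4-11 NC and 56.2% in Kasumi-1 NC.

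Several stretches of consecutive ZNF genes had no peak in any library, where 65.9% of all members had none. Whether the stretches, or the pairs counted below, exceed what that share alone would give was not tested. The longest, from ZNF43 to ZNF730, held 11 consecutive ZNF genes over 1.28 Mb of the group at 19.7 to 24.1 Mb. Runs of 10 genes from ZNF550 to ZNF586, 9 from ZNF875 to ZNF573, 9 from ZNF587B to ZNF329 and 8 from ZNF234 to ZNF229 followed. Of the 248 pairs of neighbouring members, 121 had no peak at either gene, 42 had a peak at both and 85 at 1 of the 2, with presence counted over the 4 libraries. Near the start of the last group, ZNF524, ZNF865, ZNF784, ZNF580, ZNF581 and ZNF787 follow each other within 1 Mb, and in Kasumi-1 NC all but ZNF784 (957 bases) had over 2000 bases under peaks.

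**Figure D4:**
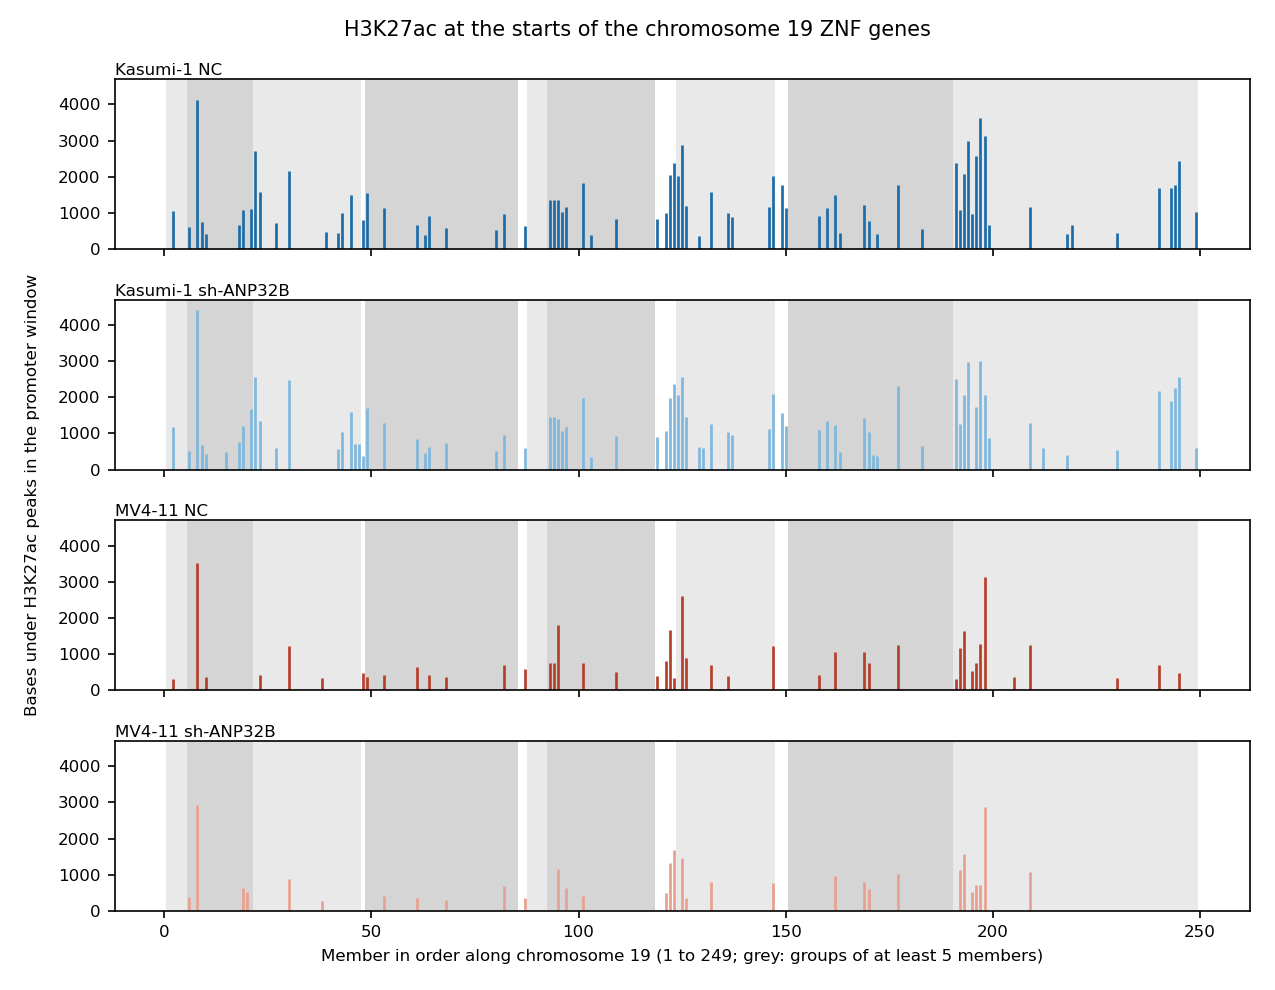
Bases under H3K27ac peaks in the promoter window of each of the 249 ZNF genes, in order along chromosome 19, in the 4 libraries (lines are single genes, with grey bands for the 9 groups of at least 5 genes). Most positions are at 0 in all libraries. ZNF414, with 4121 bases in Kasumi-1 NC, is the tallest line in each library, while other tall lines of Kasumi-1, such as ZNF865 (2995 bases in NC), are at 0 in MV4-11.

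Outside the promoter windows, the bodies of the ZNF genes carried little H3K27ac. A peak was found in the rest of the body at 15, 14, 12 and 12 of the 249 genes in Kasumi-1 NC, Kasumi-1 sh-ANP32B, MV4-11 NC and MV4-11 sh-ANP32B, or 6.02%, 5.62%, 4.82% and 4.82%. For the other chromosome 19 genes the shares were 20.8%, 20.2%, 21.0% and 19.2%. Per Mb of gene length the ZNF bodies had 2350, 2480, 2800 and 2640 bases under peaks, and the other chromosome 19 genes 25100, 26200, 19600 and 17100.

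The members with the most bases under peaks all lacked the KRAB pattern. ZNF414 (start chr19:8514167, minus strand) had 4121, 4412, 3518 and 2930 bases in Kasumi-1 NC, Kasumi-1 sh-ANP32B, MV4-11 NC and MV4-11 sh-ANP32B. A single peak covered it in each Kasumi-1 library (chr19:8512022-8516142 in NC), and 2 peaks did so in each MV4-11 library. ZNF787 had 3115, 2067, 3121 and 2864 bases. ZNF576 had 2889, 2561, 2616 and 1475 bases, and the start of IRGQ lies 461 bases away in the same window, so the peak cannot be given to either gene.

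ZNF581 had 3614, 2999, 1291 and 725 bases and ZNF580, the next start upstream, 2570, 1739, 766 and 724. In Kasumi-1 NC both windows were covered by the same peak of 3830 bases (chr19:55640933-55644762), which in Kasumi-1 sh-ANP32B was listed as 2 peaks of 1160 and 1839 bases with a gap between them. ZNF524, which encodes a telomere-binding protein, had 2070, 2070, 1652 and 1560 bases, with the start of FIZ1 771 bases away. These 6 genes had a peak in the window in all 4 libraries, but in MV4-11 the peak in the ZNF580 window was that of ZNF581. It began 1735 (NC) and 1777 (sh-ANP32B) bases downstream of the ZNF580 start.

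Fewer of the ZNF genes were marked in MV4-11 than in Kasumi-1. Of 78 genes with a peak in either NC library, 43 had a peak in both, 33 in Kasumi-1 only (42.3%) and 2 in MV4-11 only (2.56%). Over all genes with a peak in either NC library, 27.1% had it in Kasumi-1 only and 2.86% in MV4-11 only. The share of Kasumi-1-only genes was also 27.1% among the other chromosome 19 genes and 27.3% among the ZNF genes of other chromosomes. In 39 of the 43 genes with a peak in both, more bases were covered in Kasumi-1, by a median of 453 bases over the 43. For all genes with a peak in both, this was so in 5583 of 6886, by a median of 530 bases. The median gap in bases was thus not wider at these ZNF genes, but their peaks were also shorter. In Kasumi-1 NC the median coverage of genes with a peak was 1100 bases, beside 1499 for all genes. The gap relative to peak length was not compared. Summed over the 249 genes, MV4-11 NC had 0.405 times the bases of Kasumi-1 NC, beside 0.558 for all genes. The ratio was 0.447 for the other chromosome 19 genes, near that of the ZNF genes there, and 0.551 for the ZNF genes of other chromosomes. In the sh-ANP32B libraries the Kasumi-1-only share was 50 of 82 (61.0%), beside 38.7% over all genes. The smallest width of a listed peak also differed between the lines, and this, or any difference in depth, cannot be told apart from the line.

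The members with the broadest marking in Kasumi-1 and none in MV4-11 were ZNF865, ZNF653, ZNF575, ZNF837 and ZNF497. ZNF865 had 2995 (NC) and 2990 (sh-ANP32B) bases in Kasumi-1, with GC boxes in the shown stretch. ZNF653 had 2719 and 2570 bases, ZNF575 had 2008 and 2072, ZNF837 had 1767 and 2247, and ZNF497 had 1678 and 1904. Each of the 5 was at 0 in both MV4-11 libraries, and none had the KRAB pattern. In the reverse direction only 3 genes had a peak in MV4-11 and none in Kasumi-1, each short. ZNF136, a KRAB gene, had 343 (NC) and 277 (sh-ANP32B) bases in MV4-11, and ZNF71 had 362 (NC) and 0 (sh-ANP32B). The other was ZNF562, described with its pair.

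The knockdown comparison asks whether H3K27ac at these starts was lower with less ANP32B. In Kasumi-1 it was not lower as a whole. Of the 76 genes with a peak in NC, 3 had none in sh-ANP32B (3.95%, interval 1.35 to 11.0), beside 6.84% of all genes. Of the 173 without a peak in NC, 6 had one in sh-ANP32B (3.47%, 1.60 to 7.36), beside 1.61% of all genes. Of the 82 genes with a peak in either library, 53 had more bases in sh-ANP32B (64.6%) and 28 fewer (34.1%), where all genes were even, with 48.9% higher and 49.9% lower. Among genes with a peak in NC, the share with more bases also moved with GC content. From the lowest GC quintile to the highest it was 81.8%, 60%, 66.7%, 57.9% and 45.5% of the ZNF genes. Other genes had 60.9%, 56.7%, 48.5%, 48% and 32%, and the part of GC content was not tested. Summed bases went from 99326 in NC to 102932 in sh-ANP32B, a ratio of 1.04, beside 0.960 for all genes, 0.987 for the other chromosome 19 genes and 0.945 for the ZNF genes of other chromosomes.

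In the 73 ZNF genes with a peak in both Kasumi-1 libraries, the median difference was 74 bases more in sh-ANP32B, or 0.10 on the log2 scale, beside 5 bases and 0.00 for all genes. Of the 32 genes under 1000 bases in NC, 18 had more in sh-ANP32B (56.2%, median difference 54 bases), beside 45.3% of other genes in that range (median -16.5 bases). Of the 29 genes with at least 1000 but under 2000 bases in NC, 23 had more in sh-ANP32B (79.3%, median difference 125 bases), where 48.3% of other genes in that range did (median -5 bases). Of the 15 with at least 2000 bases, 6 had more (40.0%), beside 49.5% of other genes. Genes with the KRAB pattern had more bases in 37 cases and fewer in 14, with summed bases at a ratio of 1.10. Without the pattern the counts were 16 and 14, and the ratio was 0.981. KRAB genes of other chromosomes had more bases in 26 cases and fewer in 22, at a ratio of 0.993. In the 3 lower GC quintiles their counts were 21 and 11, at a ratio of 1.04, beside 31 and 11, at 1.13, on chromosome 19.

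In MV4-11 the ZNF starts had less H3K27ac in the sh-ANP32B library, as genes in general had. Of the 45 genes with a peak in NC, 17 had none in sh-ANP32B (37.8%, 25.1 to 52.4), beside 24.4% of all genes, 23.9% of the other chromosome 19 genes and 31.7% of the ZNF genes of other chromosomes. With only peaks of at least 1000 bases counted in both lists, the share was 43.8% of 16, beside 39.4% of all genes. The ZNF genes counted as lost in that way all kept a shorter peak in sh-ANP32B. Of 204 without a peak in NC, 4 had one in sh-ANP32B (1.96%, 0.765 to 4.93), beside 2.45% of all genes. Bases were fewer in 41 of the 49 genes with a peak in either library (83.7%) and more in 7 (14.3%), beside 78.1% and 21.5% of all genes. Summed bases went from 40186 to 28763, a ratio of 0.716, close to the 0.721 of all genes. In the 28 genes with a peak in both MV4-11 libraries the median difference was -241 bases, or -0.30 on the log2 scale, beside -211 bases and -0.27 for all genes.

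All 17 genes with a peak in the NC but not the sh-ANP32B library of MV4-11 had under 1000 bases in the former, from 296 to 749 with a median of 412, while the 28 that kept a peak ranged from 343 to 3518 with a median of 967. Among the 31 genes under 1000 bases in NC the share without a peak in sh-ANP32B was 54.8% (37.8 to 70.8), beside 43.8% of other genes in that range. None of the 14 genes above that was without a peak in sh-ANP32B, beside 9.66% of other genes with 1000 bases up to 2000 and 0.805% of those with at least 2000. Of the 17 genes, 15 had the KRAB pattern, beside 29 of the 45 with a peak in NC. Summed over KRAB genes the bases had a ratio of 0.579, and over the others 0.839. The ZNF genes of other chromosomes differed in the same direction, but less. There 15 of 34 KRAB genes and 23 of 86 without the pattern had no peak in sh-ANP32B where NC had one. On chromosome 19 these counts were 15 of 29 and 2 of 16. The ratios on other chromosomes were 0.527 with the pattern and 0.663 without it. On chromosome 19 the KRAB genes with a peak in MV4-11 NC also had fewer bases there, with a median of 484 beside 1024 without the pattern. Pattern and peak length were not separated, and the part of either was not tested.

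**Figure D5:**
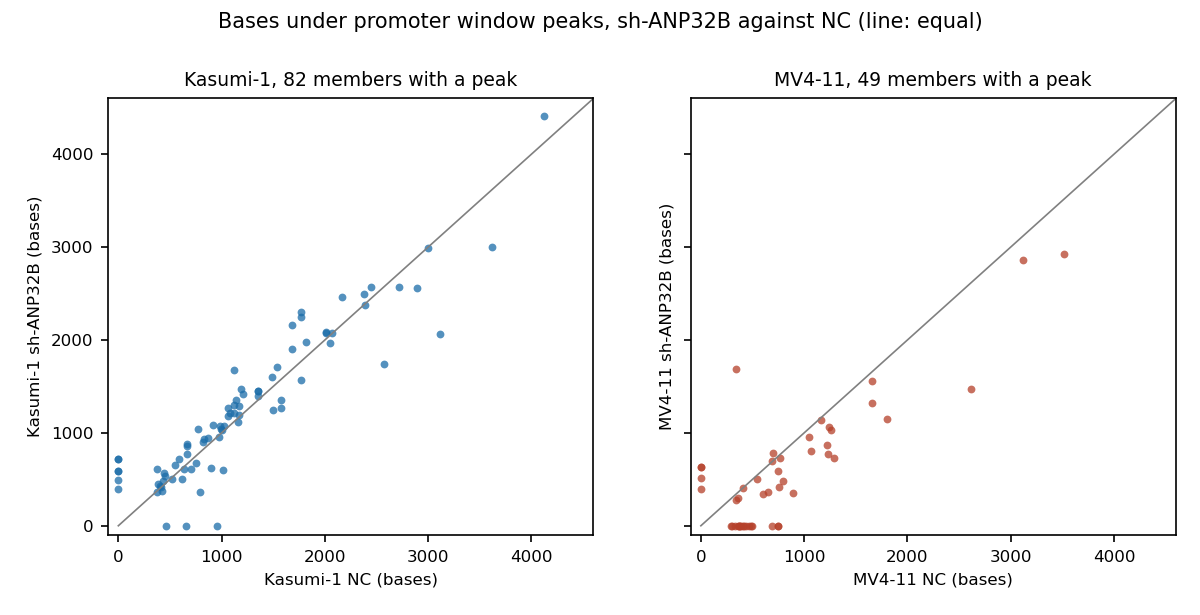
Bases under peaks in the promoter window of each ZNF gene with a peak in either library of the line, in sh-ANP32B (vertical) against NC (horizontal), with a line where both are equal. In Kasumi-1 53 of 82 points lie above the line, and in MV4-11 41 of 49 lie below it, 17 of them at 0 in sh-ANP32B.

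No ZNF gene of chromosome 19 lost its peak with knockdown in both lines, and 0 gained one in both, beside 76 (0.379%) and 5 (0.025%) of all 20033 genes, so with 249 genes these zeros say little. Of the 46 genes with a peak in at least 1 library of each line, 27 had more bases in the Kasumi-1 sh-ANP32B library and fewer in the MV4-11 one, 4 the opposite, 11 fewer in both and 2 more in both, or 58.7%, 8.70%, 23.9% and 4.35%. Over the 7199 such genes of the genome the shares were 41.1%, 9.45%, 36.3% and 11.2%. Whether the lines differ in their response was not tested, since each group is 1 library.

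In Kasumi-1, ZNF787 had the largest difference downward, from 3115 to 2067 bases. Its peak covered the start in NC (chr19:56118324-56121909) and came no nearer than 434 bases downstream of it in sh-ANP32B (chr19:56117955-56120861). ZNF784 went from 957 bases to 0, while in MV4-11 it had 544 and 508. ZNF549 (658 bases in NC) and ZNF44 (460 bases, named here to complete the 3) also had no peak in Kasumi-1 sh-ANP32B, and neither had a peak in MV4-11. ZNF580 and ZNF581, with their shared peak, complete the largest differences.

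The largest differences upward in Kasumi-1 were at starts with no peak in NC. ZNF490 and ZNF791 start 107 bases apart on opposite strands and shared 1 peak of 718 bases (chr19:12610559-12611276), present in the Kasumi-1 sh-ANP32B library and in no other. The stretch shown for ZNF791, which covers both starts, holds CCAAT and 2 copies of GGGCGG. ZNF547, whose start is also that of TRAPPC2B, had 591 bases there, and ZNF221 had 590. The other 2 genes with a peak in Kasumi-1 sh-ANP32B and not in NC, named here to complete the 6, were ZNF266 with 493 bases and ZNF83 with 391. All 6 were without a peak in both MV4-11 libraries. ZNF846 had a peak throughout in Kasumi-1, with 1117 bases in NC and 1673 in sh-ANP32B, and none in MV4-11.

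In MV4-11 the largest differences downward were at ZNF576, from 2616 to 1475 bases, and at 3 starts that had no peak in sh-ANP32B. ZNF565 and ZNF146, a KRAB gene and a gene of fingers alone, start 441 bases apart on opposite strands and shared the peak chr19:36214726-36215474 of 749 bases. In Kasumi-1 the shared peak had 1350 bases in NC and 1453 in sh-ANP32B. ZNF274, a KRAB protein known to bind the 3′ ends of other zinc finger genes and to recruit SETDB1 there, had 1679 (NC) and 2166 (sh-ANP32B) bases in Kasumi-1, against 689 (NC) and 0 (sh-ANP32B) in MV4-11. The stretch shown for ZNF274 holds 5 GC boxes on the opposite strand, and its MV4-11 NC peak (chr19:58183070-58183758) began 9 bases downstream of the start. ZNF566 had 1351 and 1397 bases in Kasumi-1 and 1799 and 1150 in MV4-11, the only one of these genes with more bases in MV4-11 NC than in Kasumi-1 NC.

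A few starts had more in the MV4-11 sh-ANP32B library. ZNF526 had 344 bases in NC, the end of a peak upstream, and 1685 in sh-ANP32B, where a second peak of 785 bases lay over its start (chr19:42219704-42220488). In Kasumi-1 it had 2386 and 2380 bases. ZNF561 (0 and 635 bases), ZNF529 (0 and 633), ZNF562 (0 and 517) and ZNF557 (0 and 392) had a peak in MV4-11 sh-ANP32B only. ZNF561, ZNF562 and ZNF557 lie in the group at 7.1 to 9.8 Mb, where summed bases in MV4-11 were 3885 in NC and 4474 in sh-ANP32B. In the other groups with a peak in MV4-11 NC, sh-ANP32B had at most 0.745 times the bases of NC. ZNF561, ZNF529 and ZNF557 had peaks in both Kasumi-1 libraries, of 1083 and 1212, 1170 and 1190, and 615 and 501 bases in NC and sh-ANP32B.

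The partner genes of KRAB silencing were read in the same way, from a list of 14. All 14 had a promoter peak in both Kasumi-1 libraries. Of these, 9 had one in the MV4-11 NC library and 8 in the MV4-11 sh-ANP32B library. Over all protein-coding genes the shares were 47.7% (NC) and 45.3% (sh-ANP32B) for Kasumi-1, then 35.8% and 28.6% for MV4-11. Of all genes with a peak in either NC library, 27.1% lacked it in the MV4-11 one and 2.86% in the Kasumi-1 one. Whether the 14 differ from genes in general was not tested. TRIM28, the corepressor that KRAB domains bind, itself on chromosome 19, had 2617 (NC) and 2619 (sh-ANP32B) bases in Kasumi-1 and was at 0 in both MV4-11 libraries. SETDB1 (2085 and 2166 bases), the HP1 gene CBX1 (1823 and 1831), UHRF1, a partner of the maintenance DNA methyltransferase (3478 and 3435), and MPHOSPH8, a subunit of the HUSH silencing complex (935 and 911), were also at 0 in MV4-11. Absence from the list is not absence of the mark, since depth is unknown.

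Between NC and sh-ANP32B, 10 of the 14 partner genes had more bases and 4 fewer in Kasumi-1, and 2 had more and 7 fewer in MV4-11. For all genes with a peak, 48.9% had more bases in Kasumi-1 and 78.1% had fewer in MV4-11. The median difference of the 14 in Kasumi-1 was 9 bases, small beside the width of a peak. The largest difference in Kasumi-1 was at DNMT1, the maintenance DNA methyltransferase, with 2676 bases in NC and 3737 in sh-ANP32B, where MV4-11 had 1328 and 815. In MV4-11 CBX3, another HP1 gene, had 3027 bases in NC and 1699 in sh-ANP32B, beside 3331 and 3340 in Kasumi-1. PPHLN1, a further HUSH subunit, had 461 bases in MV4-11 NC and none in sh-ANP32B. A peak list cannot tell fewer cells with the mark from less of the mark in each cell.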

How the data were processed

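H3K27ac CUT&Tag peak lists of 4 libraries were used, 1 per line and hairpin, grouped by the sample labels. The 2 IgG libraries are not analysed here, and whether they served as controls for peak calling is not given in the sources used here.

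The authors aligned reads to hg38 with Bowtie2, removed duplicates with Picard, merged replicates with samtools and called peaks with MACS at a q-value of 0.01. The submitters' processing notes name Bowtie2 2.4.4 and MACS3 3.0, while the study's methods name MACS2 and another Bowtie2 version. The deposited files give the sequence name, start, end and length in bases of each peak, counted from 1, with no height, ratio, p-value or read count. Depth and spread between replicates are therefore unknown. A read with several possible places can be lost or misplaced in alignment, which touches this family in particular.

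Windows ran from 2500 bases before to 2500 bases after the Ensembl canonical start of 20033 protein-coding genes (GENCODE v44). A gene was lost with at least 1 covered base in NC and 0 in sh-ANP32B, gained in the reverse case, and higher or lower by its covered bases. No test was possible with 1 library a group. Shares have Wilson 95% intervals, which cover counting error only. GC quintiles were set over all windows, and groups of genes were ended by a gap over 1 Mb. Coding sequences of canonical transcripts were translated from hg38 to find C2H2 fingers and the KRAB core by pattern. The patterns were loosened once, after symbols of known KRAB genes were missed. Related sequences were aligned end to end. The counting of windows, bases and losses was checked on simulated peaks.

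The members and lists were chosen with earlier results of these data known. The result of 1 marker list is not reported here. Genes named are the 5 members with the most bases over the 4 libraries, the 5 largest falls and rises per line, the 5 with the most bases in 1 line and none in the other, members lost or gained in both lines (there were none), and ZNF91, ZNF93, ZNF274, ZNF331, ZNF649 and ZNF611. Others were named after their values were seen, to complete a count, mark the ends of a run of genes or name neighbours. Python 3.11.15, numpy 2.4.6, pandas 2.3.3, scipy 1.17.1, biopython 1.88 and matplotlib 3.10.9 were used.

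Alternatives were a window of 1000 bases, a window around any annotated start of the gene, peaks of at least 1000 bases, at least 200 covered bases, the same minimum peak width and joining gap (358 bases) for all lists, and groups ended by 500 kb. Leaving out members with another protein-coding start in the window, or whose symbol joins 2 genes, was added after the data were seen.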

Additional observations from a re-analysis of the deposited data

Results flagged for a closer look

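The summed bases of the ZNF genes in sh-ANP32B were 1.04 times those in NC for Kasumi-1 and 0.716 times for MV4-11. The lines thus stood on opposite sides of equality, and the difference between them was not tested, since each group is 1 library.

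Of the named genes with a peak in each line, 7 had opposite signs, while others, such as ZNF787 and ZNF581, had the same sign in both lines. As bases in sh-ANP32B minus bases in NC, ZNF414 had 291 in Kasumi-1 and -588 in MV4-11. The shared peak of ZNF565 and ZNF146 gave 103 and -749 for each of the genes. ZNF274 had 487 and -689, and ZNF566 had 46 and -649. With the signs the other way round, ZNF526 had -6 and 1341, and ZNF557 had -114 and 392. None of these differences between lines was tested. The differences of ZNF566 and ZNF526 in Kasumi-1 are small beside the width of a peak.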

How the results depend on the processing

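Of 116 values recomputed under the alternatives, 102 stayed close and 14 moved further. Close means a move of at most 1.5 times for a count or ratio, or within its interval for a share. Only the ratio of covered bases has a direction that could change, and in each line it kept its side of equality. The cutoff on covered bases could move no value, as every member with a peak had at least 277. Leaving out members with a joined symbol could move none either, as these had no peak. The unmoved values of both settings are among the 102. With peaks of at least 1000 bases only, the members with a peak were 43, 45, 16 and 9 in Kasumi-1 NC, Kasumi-1 sh-ANP32B, MV4-11 NC and MV4-11 sh-ANP32B. In Kasumi-1 14 were then lower and 32 higher, and in MV4-11 7 were lost, 0 gained, 15 lower and 1 higher. These 7 still had a peak under 1000 bases in sh-ANP32B, which this setting leaves out. The lost share in MV4-11 was then 43.8%, beside 39.4% of all genes, a smaller gap than 37.8% beside 24.4%. MV4-11 NC alone had 0, fewer peaks being counted by construction. With the common minimum width and joining gap, 1 gene had a peak in MV4-11 NC only. Among the 211 members without another start in the window, 3 were gained in Kasumi-1, since shared starts left the count. With groups of genes ended by 500 kb, the highest share of a group in MV4-11 NC was 50% in place of 20.8%. With a window around any annotated start, 81, 83, 50 and 36 members had a peak. No replicate could be left out, as replicates were merged. No paired analysis was possible because each group is 1 library and no test was run. Depth is unknown, so a start without a peak may carry the mark below the caller's threshold.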
